A study of Arabidopsis thaliana with 6 samples.

Results

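Peaks of acetylated lysine 9 of histone H3 (H3K9Ac) that lie outside every annotated gene body were examined in *Arabidopsis thaliana* seedlings. A peak was counted as intergenic when the whole stretch from its start to its end overlapped no coding or noncoding gene of the annotation, with pseudogenes not counted as genes. By this rule 149 of 12864 peaks in ethylene (1.16%, 95% Wilson interval 0.987 to 1.36%) and 854 of 18314 peaks in air (4.66%, 4.37 to 4.98%) were intergenic, or 1003 of 31178 peaks in all. The remaining 12715 ethylene peaks and 17460 air peaks are called genic.

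All seedlings carried *ein2-5*, a loss-of-function allele of EIN2, through which ethylene perceived by the receptors acts on the nucleus, and were dark-grown for 3 days. They were then treated for 4 h with 10 ppm ethylene in hydrocarbon-free air or with hydrocarbon-free air alone. Whole seedlings were used, so the signal is a mean over all cell types, and fewer cells with a mark cannot be told apart from less mark per cell. Each treatment had 2 H3K9Ac libraries and 1 control library, which the labels call IgG in the title and Protein G beads in the antibody field. The authors pooled the libraries of a treatment and deposited 1 peak list for each, so there is no spread between replicates and no test of ethylene against air. The intervals given here cover the sampling of peaks only.

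Acetylation of H3K9 is placed by histone acetyltransferases and removed by deacetylases, and it loosens the hold of the nucleosome on DNA. In plants and animals it is known as a mark of active promoters, where it peaks at the first nucleosomes downstream of the transcription start site (TSS). Outside annotated genes it can mark distal regulatory DNA, starts of genes that the annotation lacks or places elsewhere, and expressed pseudogenes or mobile elements.

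To show the DNA under such peaks, the 300 bases centred on the ethylene summit are printed for 5 of them, which had the largest mean fold enrichment over both lists in their class. The classes are a peak nearest the start of a gene in a gap between genes that point the same way (tandem), a peak between genes that point away from each other (divergent), a peak between genes that point towards each other (convergent), a peak over 5 kb from any gene, and a peak over a pseudogene. The first 4 overlap no annotated feature at all. The sequences are the plus strand of RefSeq TAIR10.1. Capitals mark matches, on either strand, to the TATA element TATAAA, the G-box CACGTG, the site II element TGGGCC, the telo box AAACCCTA or the GA repeat GAGAGAGA.
AT3G44430/AT3G44440 tandem gap, chr3:16070205-16070504: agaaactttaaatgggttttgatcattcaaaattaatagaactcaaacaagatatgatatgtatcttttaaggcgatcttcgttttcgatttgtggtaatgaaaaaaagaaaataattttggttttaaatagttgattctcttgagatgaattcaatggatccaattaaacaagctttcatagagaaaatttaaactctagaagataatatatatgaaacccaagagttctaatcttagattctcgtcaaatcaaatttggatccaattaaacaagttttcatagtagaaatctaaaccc
AT3G07085/AT3G45252 divergent gap, chr3:16584522-16584821: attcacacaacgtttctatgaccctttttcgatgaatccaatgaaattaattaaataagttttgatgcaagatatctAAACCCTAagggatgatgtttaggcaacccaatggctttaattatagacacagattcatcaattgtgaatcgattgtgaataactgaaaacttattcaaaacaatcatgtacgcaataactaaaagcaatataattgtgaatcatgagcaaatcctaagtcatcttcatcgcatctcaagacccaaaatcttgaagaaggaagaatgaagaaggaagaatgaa
AT4G05895/AT4G11550 convergent gap, chr4:6995866-6996165: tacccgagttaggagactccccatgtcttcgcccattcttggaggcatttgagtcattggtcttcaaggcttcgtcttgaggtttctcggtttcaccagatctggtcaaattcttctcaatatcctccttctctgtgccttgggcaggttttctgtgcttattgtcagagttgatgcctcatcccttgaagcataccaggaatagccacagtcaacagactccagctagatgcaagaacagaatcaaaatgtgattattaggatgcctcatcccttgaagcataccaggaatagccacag
AT3G06465/AT3G42723 far peak, chr3:14811290-14811589: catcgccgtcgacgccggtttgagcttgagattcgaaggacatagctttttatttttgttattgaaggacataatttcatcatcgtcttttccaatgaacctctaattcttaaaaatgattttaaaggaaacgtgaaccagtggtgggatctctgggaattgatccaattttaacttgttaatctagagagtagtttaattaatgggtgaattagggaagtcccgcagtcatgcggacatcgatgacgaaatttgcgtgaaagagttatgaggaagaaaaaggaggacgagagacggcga
AT1G35612 pseudogene, chr1:13145933-13146232: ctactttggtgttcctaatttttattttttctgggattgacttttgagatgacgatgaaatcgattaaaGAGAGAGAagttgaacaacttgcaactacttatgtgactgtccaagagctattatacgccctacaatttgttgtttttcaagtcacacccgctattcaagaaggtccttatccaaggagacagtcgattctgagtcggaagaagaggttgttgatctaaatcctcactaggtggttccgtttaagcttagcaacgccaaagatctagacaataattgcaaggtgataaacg
The windows differed in base composition, with G and C at 27.0% in the tandem gap, 32.3% in the divergent gap, 46.3% in the convergent gap, 40.0% at the far peak and 39.0% over the pseudogene. The divergent window held a telo box and the pseudogene window a GA repeat. The other 3 windows held none of these letters.

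The peak between AT3G44430 and AT3G44440 had the largest fold enrichment of the ethylene members, at 3.33 with a breadth of 463 bp in ethylene, against 3.50 and 539 bp in air. Fold enrichment is the authors' ratio of the pileup at the summit to the local background. From the pileup, the number of H3K9Ac tags that cover the summit was recovered, which cannot exceed 400 because the peak caller kept 1 tag per position and strand. That number was 303 in ethylene and 306 in air. The convergent peak between AT4G05895 and AT4G11550 had 274 tags in ethylene and 278 in air, but a breadth of 333 bp in ethylene against 687 bp in air. At the far peak on chromosome 3, 19499 bp from AT3G06465, 317 tags covered the summit in ethylene and 324 in air. The tag counts of these peaks were thus close in both lists, while the called breadth was smaller in ethylene.

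Intergenic peaks were narrower and had fewer tags at the summit than genic ones in both lists, while fold enrichment was lower in air alone. Their median breadth was 336 bp (95% interval 300 to 387 bp) in ethylene, against 424 bp for genic ethylene peaks. In air it was 327 bp (315 to 338 bp), against 589 bp for genic air peaks. The median number of tags at the summit was 268 (246 to 276) for intergenic and 281 (280 to 282) for genic peaks in ethylene, and 172 (169 to 174) for intergenic and 264 (263 to 265) for genic peaks in air. Median fold enrichment was 2.24 (2.14 to 2.32) for intergenic and 2.20 (2.19 to 2.21) for genic peaks in ethylene, where the intervals overlapped. In air it was 1.85 (1.82 to 1.87) for intergenic and 2.36 (2.35 to 2.37) for genic peaks, whose intervals did not overlap.

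**Figure D1:**
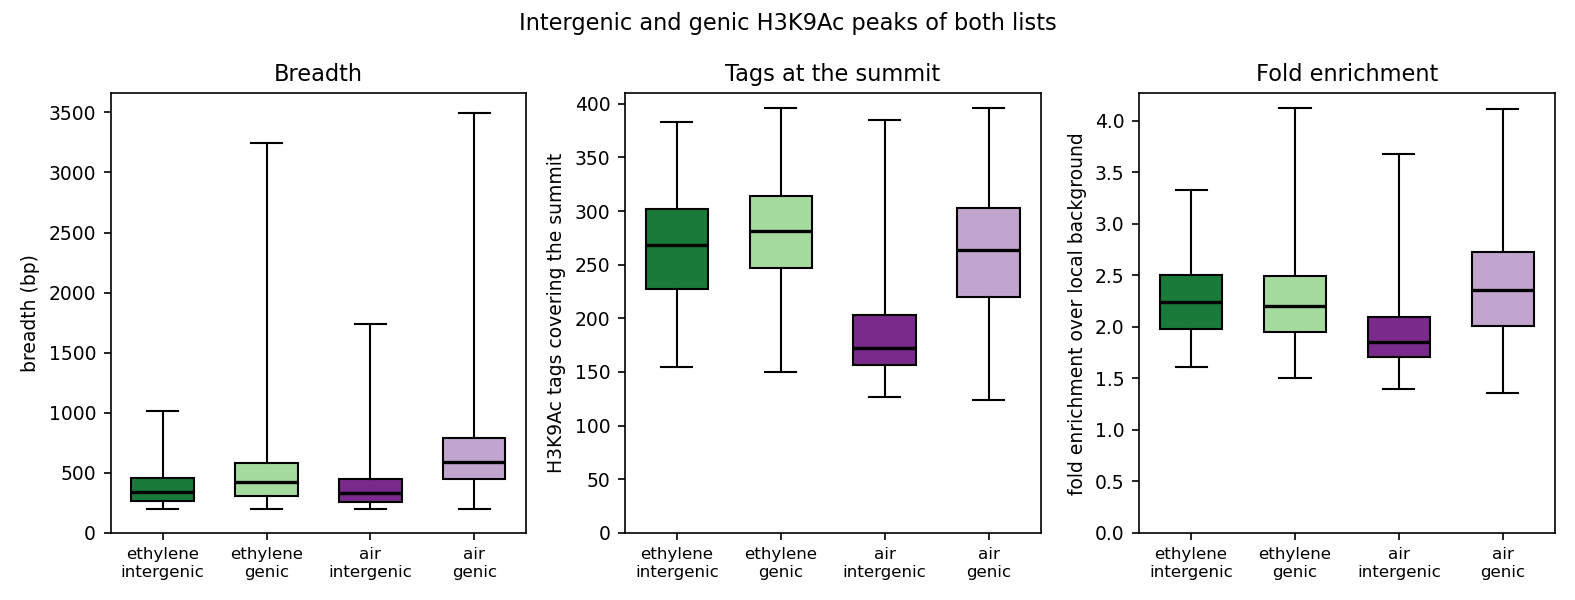
Breadth in bp, H3K9Ac tags covering the summit and fold enrichment of intergenic (dark) and genic (light) peaks in the ethylene and the air list. Boxes span the quartiles with the median as a line and whiskers reach the lowest and highest peak; the intergenic air peaks, at a median of 172 tags, lie lowest.

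The number of intergenic peaks in air depended on the length of the list. The peak caller scaled the H3K9Ac data to the control, by 0.0999 in ethylene and 0.301 in air, so a peak of given fold enrichment has a smaller p in air. When the air list was reduced to the 12864 peaks with the lowest p, 197 intergenic peaks (1.53% of the list, 1.33 to 1.76%) were left in air. Beside them were the 149 (1.16%, 0.987 to 1.36%) in ethylene, and the intervals overlapped. Those 197 had a median breadth of 502 bp, a median of 249 tags and a fold enrichment of 2.43. The genic peaks of the same reduced list had higher medians, of 657 bp, 284 tags and 2.55.

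Most of the ethylene members lay over pseudogenes, so they are intergenic by the rule but not free of annotated features. Of the ethylene members, 79 of 149 (53.0%, 45.0 to 60.9%) overlapped an annotated pseudogene, 35 of them a pseudogene annotated as transcribed. Of the air members, 135 of 854 (15.8%, 13.5 to 18.4%) did, 63 of them over a transcribed one. Of all 4843 annotated pseudogenes, 926 are annotated as transcribed. Pseudogenes hold 19.5% of the bases between genes, a share below the ethylene interval and above the air interval, and in the air list cut to equal length 42.6% of the members (35.9 to 49.6%) overlapped one. Among genic peaks 0.189% in ethylene and 0.206% in air overlapped a pseudogene as well. Yet few pseudogenes were marked, with a peak of any kind over 97 of 4843 (2.00%) in ethylene and 163 (3.37%) in air. The annotated pseudogenes include retrotransposons, such as the Sadhu copies described below, so these shares are not of gene copies alone.

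The peaks over pseudogenes lay near the pseudogene's start. The summit was a median of 320 bp (265 to 393 bp) downstream of the annotated start in ethylene, with 62 of 79 within 500 bp of it. In air the median was 278 bp (229 to 330 bp), with 102 of 135 within 500 bp. These peaks were also broader than those with no annotated feature, with medians of 422 bp against 284.5 bp in ethylene and of 495 bp against 310 bp in air.

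Members of this class include CYP71B18 (AT3G26165), a transcribed pseudogene of the cytochrome P450 family that lies between CYP71B17 and CYP71B19 on chromosome 3. Its peak was 806 bp broad with 320 tags in ethylene, and 817 bp with 323 tags in air. AT1G35612, annotated as a pseudogene of a Ulp1 protease, carried a peak of 799 bp with 342 tags in ethylene and of 1485 bp with 348 tags in air. The broadest ethylene member, 1013 bp with 318 tags, lay over AT2G05290, where the air peak was 1260 bp with 309 tags. At AT5G04880, a pseudogene of the ABC transporter family, the peak was 455 bp with 362 tags in ethylene and 517 bp with 361 tags in air. In ethylene this peak lay 47 bp from the start of AT5G04885 and 1577 bp from the protein kinase gene CPK1. Its ethylene summit was just outside the pseudogene. In all 4, the tags at the summit differed by no more than 9 between the lists.

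Sadhu elements, a family of noncoding retroposons of *Arabidopsis*, were looked at after their values had been seen. Of 15 annotated copies, 7 carried a peak in each list, and for 6 copies in ethylene and 5 in air that peak was intergenic. Of all 4843 pseudogenes, 2.00% in ethylene and 3.37% in air carried a peak of any kind. An intergenic peak lay over 1.55% of them in ethylene and 2.66% in air. The highest intergenic peak of a Sadhu copy was at SADHU1-1 (AT2G10410) on chromosome 2, with 371 tags and 698 bp in ethylene and 385 tags and 803 bp in air. SADHU1-2 had 349 tags in ethylene and 351 in air, and SADHU1-3 had 339 in ethylene and 325 in air. The other 8 copies had no peak in either list.

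Members lay in gaps with a median length of 4948 bp in ethylene and 4206 bp in air. These members' median intervals were 4167 to 5705 bp in ethylene and 3846 to 4423 bp in air. Over all bases of the 17656 gaps of at least 400 bp, the median length of the gap that holds a base is 5299 bp. In ethylene 140 gaps held a peak, 9 of them 2 peaks. In air 663 gaps held a peak, 86 of them 2 and 36 of them 3 or more. Together the lists marked 670 gaps. Gene order around the members was close to that of the gaps themselves. In ethylene 26.2% of the peaks (19.8 to 33.8%) lay in divergent, 55.7% in tandem and 18.1% (12.8 to 25.1%) in convergent gaps, and in air 32.7% (29.6 to 35.9%) lay in divergent, 54.0% in tandem and 13.3% (11.2 to 15.8%) in convergent gaps. Of all gap bases, 30.6% are divergent, 53.4% tandem and 15.9% convergent, and each of these shares was within the interval of both lists except the convergent one, which was just above the interval in air.

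The edge of a member lay a median of 826 bp (690 to 959 bp) from the nearest gene in ethylene and 739 bp (674 to 797 bp) in air. Per 100 bp of distance, members were more frequent within 1000 bp of a gene than beyond, though gap bases are themselves more numerous near genes, which these counts do not allow for. In ethylene there were 9.0 per 100 bp up to 200 bp from a gene, 10.0 from 201 to 500 bp, 8.2 from 501 to 1000 bp and 2.3 over the next 1000 bp. In air there were 66.5, 60.7, 39.0 and 18.6 per 100 bp in the same classes. The nearest gene end was a start for 77 of 149 ethylene members (51.7%, 43.7 to 59.6%) and for 506 of 854 air members (59.3%, 55.9 to 62.5%). Of all gap bases, 57.3% lie nearest a start, so neither list differed from the gaps beyond its interval. Summits were upstream of their nearest TSS for 70.5% of ethylene members (62.7 to 77.2%) and 77.3% of air members (74.3 to 80.0%). The distance was a median of 1054 bp for upstream summits in ethylene and 1162 bp in air, and 3078 bp for downstream summits in ethylene and 2557 bp in air. By the rule a summit downstream of its nearest TSS must lie beyond that gene's whole body. The same shares and distances were not computed for all gap bases, so no preference can be read from them. The nearest TSS was on the plus strand for 47.0% of ethylene members (39.1 to 55.0%) and 49.5% of air members (46.2 to 52.9%), with no preference for a strand beyond these intervals.

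**Figure D2:**
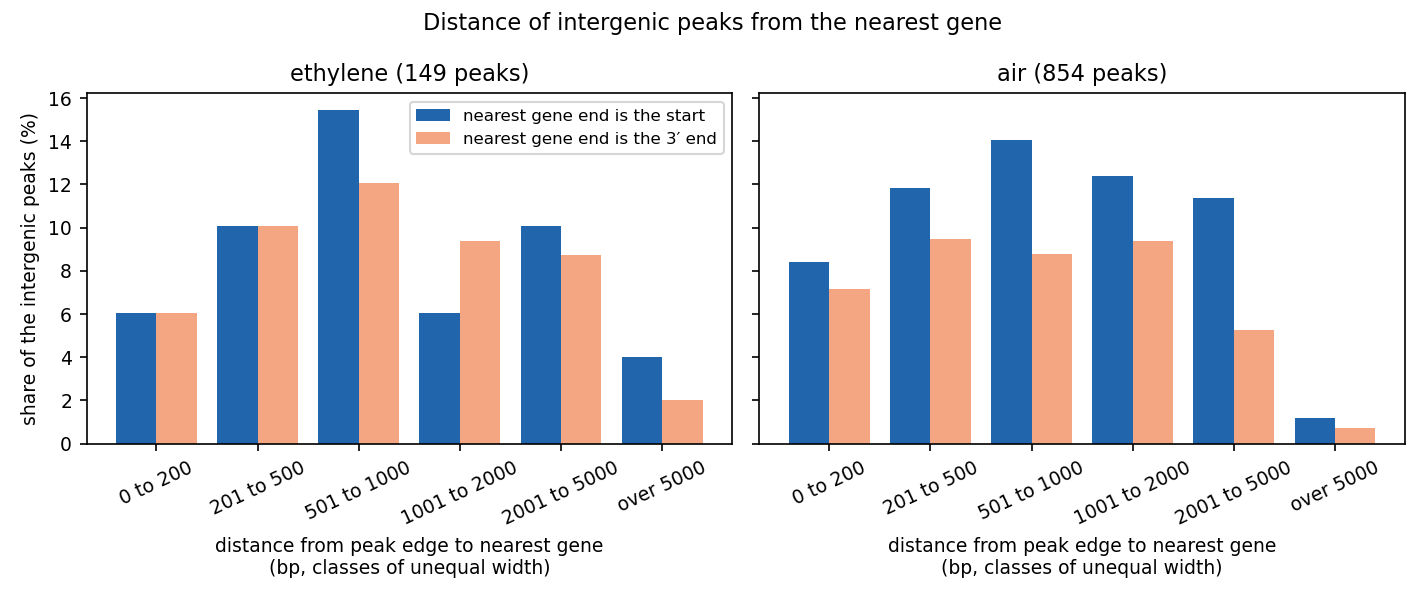
Share of the intergenic peaks by distance in bp from the peak edge to the nearest gene, split by whether the nearest gene end is the start or the 3′ end, in ethylene (149 peaks) and air (854 peaks). The distance classes are of unequal width, so bar heights are not densities; 9 ethylene and 16 air peaks lie beyond 5000 bp.

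At the border of the rule, median tags were close on both sides, while breadth was close in air only. The 4 ethylene and 24 air members within 50 bp of a gene had median tags of 287.5 in ethylene and 172.5 in air, and median breadths of 356.5 bp in ethylene and 298.5 bp in air. Genic peaks that overlapped genes by at most 50 bp numbered 8 in ethylene and 18 in air. Their median tags were 291.5 in ethylene and 172 in air, and their median breadths 447 bp in ethylene and 300.5 bp in air. For 7 ethylene members the overlapping air peak was broad enough to reach a gene. One of them, 240 bp in ethylene and 454 bp in air, lay 41 bp from the ubiquitin gene UBQ1 and had 274 tags in both lists. The gene that its air peak reached was AT3G52580, on the other side of the gap, and not UBQ1. Another lay 274 bp from AT5G06335, in the gap before the marneral synthase gene MRN1, with 206 tags and 300 bp in ethylene and 203 tags and 844 bp in air. No air member had an ethylene counterpart that reached a gene.

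Nearly every intergenic ethylene peak was found again in air, whereas few intergenic air peaks were found in ethylene. An air peak overlapped 148 of 149 ethylene members (99.3%, 96.3 to 99.9%), beside 99.6% of all ethylene peaks. An ethylene peak overlapped 139 of 854 air members (16.3%, 13.9 to 18.9%), beside 67.1% of all air peaks and 69.6% of genic ones. The single ethylene member with no air peak, on chromosome 1 from 11486817 to 11487019, was 203 bp broad with 174 tags and lay 982 bp from AT1G31990.

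The recurrence of air members followed their height. Of the air members with fewer than 150 tags 0 of 141 overlapped an ethylene peak, and of those with 300 tags or more 43 of 45 did (95.6%). For genic air peaks the shares were 2.56% below 150 tags and 96.0% at 300 tags or more. The lowest ethylene peaks had 155 tags among intergenic and 150 among genic ones. Air peaks below 150 tags were thus lower than any peak of the ethylene list, so their low share was largely set by where that list ends. Between these ends the share was lower for intergenic than for genic peaks of like height. With 175 to 199 tags, 6.98% of intergenic (4.04 to 11.8%) and 28.9% of genic air peaks (26.6 to 31.3%) were found in ethylene, and with 200 to 224 tags 23.0% of intergenic (15.4 to 32.9%) and 46.8% of genic ones (44.5 to 49.0%). From 250 tags upwards the intervals overlapped. In the lists of equal length, 55.3% of the 197 intergenic air peaks (48.4 to 62.1%) and 83.5% of genic ones were found in ethylene. In the other direction 79.2% of intergenic ethylene peaks (72.0 to 84.9%) and 87.3% of genic ones (86.7 to 87.8%) were found in air, with intervals that did not overlap.

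**Figure D3:**
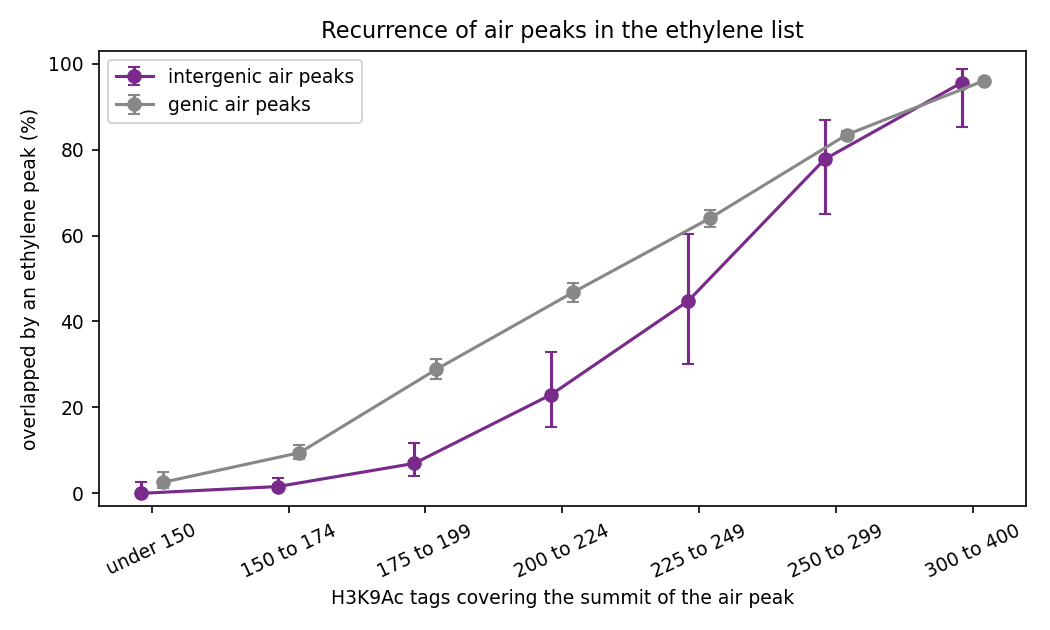
Share of intergenic and genic air peaks overlapped by an ethylene peak, by the number of H3K9Ac tags covering the summit of the air peak, with 95% Wilson intervals. The intergenic share is the lower one between 150 and 249 tags, where the intervals do not overlap, and both shares are above 95% at 300 tags or more.

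Recurrence also went with the annotated feature. All 79 ethylene members over a pseudogene were found in air. In the other direction 77 of 135 air members over a pseudogene (57.0%, 48.6 to 65.1%) were found in ethylene, against 62 of 719 with no annotated feature (8.62%, 6.79 to 10.9%). The medians of these air classes were 241 tags over a pseudogene and 168 tags with no feature. Recurrence differed less by place, at 13.3% in divergent, 16.5% in tandem and 22.8% in convergent gaps, with intervals that overlapped.

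Peaks that were intergenic in both lists had close tag counts but differed in breadth. They formed 137 pairs of 1 ethylene and 1 air peak. Median tags were 268 in ethylene and 267 in air, and the median difference within a pair was -2 tags (-4 to 1). These counts were not adjusted for the H3K9Ac tags used, 43572576 in ethylene and 45582654 in air. Of the pairs, 76 had fewer and 58 had more tags in ethylene, and 3 had equal numbers. The differences ran from -33 to 25 tags, and in 35 pairs both peaks had 300 tags or more, close to the ceiling of 400 tags, so equality of height cannot be read from them. Median breadth was 341 bp in ethylene and 535 bp in air, and 128 of 137 pairs (93.4%, 88.0 to 96.5%) were narrower in ethylene. The same held for 95.8% of 11557 genic pairs (95.4 to 96.2%). The part that the scaling to the controls had in breadth was not tested. Fold enrichment had a median of 2.27 in ethylene and 2.48 in air, with differences within a pair from -1.96 to 0.67, and summits lay a median of 31 bp apart.

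**Figure D4:**
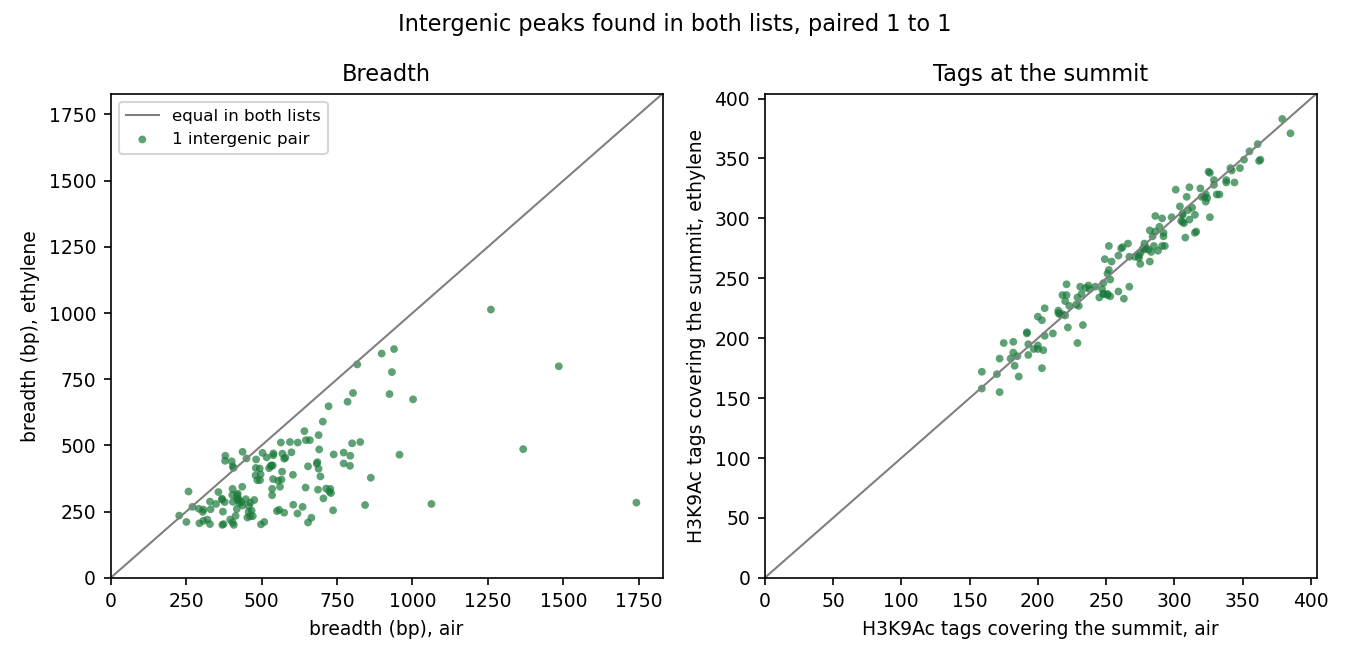
Breadth in bp (left) and H3K9Ac tags covering the summit (right) of the 137 intergenic peaks paired 1 to 1, with ethylene on the vertical and air on the horizontal axis and a line of equality. Tags lie along the line, while the ethylene breadth is below the line in 128 pairs.

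The summits of low air members lay in DNA rich in A and T. The share of G and C in the 300 bases around the summit had a median of 40.7% (39.0 to 41.7%) for intergenic and 43.0% for genic peaks in ethylene, and of 30.7% (30.0 to 31.0%) for intergenic and 42.3% for genic peaks in air. All gaps of at least 400 bp together hold 32.7% G and C, or 30.6% outside pseudogenes, and gene bodies hold 38.7%. Intergenic air peaks found in ethylene had a median of 40.3% (39.0 to 42.0%), and those found in air alone had 29.7% (29.3 to 30.3%). Air members over a pseudogene had 42.3%, close to genic peaks, and those with no annotated feature had 29.7%, close to the gaps.

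**Figure D5:**
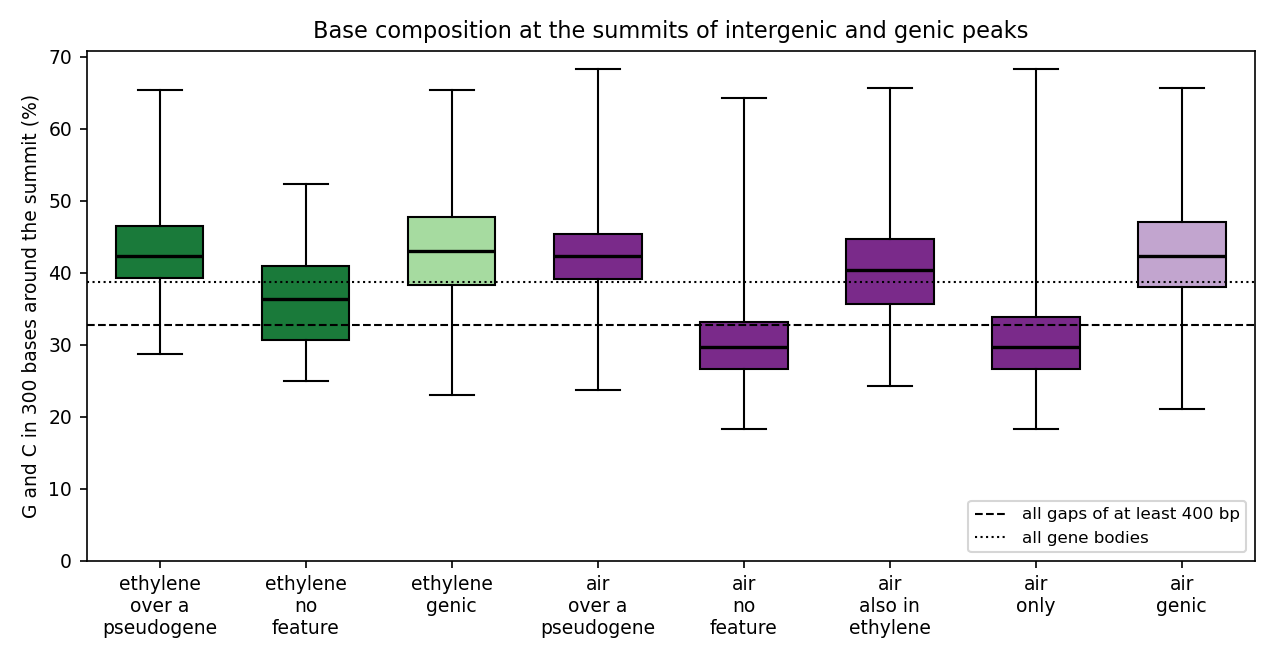
Share of G and C in 300 bases around the summit, by list and class (dark boxes intergenic, light boxes genic), with quartiles, median and full range. Dashed and dotted lines give all gaps of at least 400 bp (32.7%) and all gene bodies (38.7%); air peaks without a feature and those not found in ethylene lie below both lines at the median.

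Between 150 and 249 tags this difference in composition was present at like height, and from 250 tags upwards it was not. Among air members with 175 to 199 tags, the 12 found in ethylene had a median of 41.7% and the 160 found in air alone had 30.3%, while genic peaks had 41.8% when found in ethylene and 41.0% when found in air alone. With 250 tags or more, the 85 members found in ethylene and the 14 found in air alone both had a median of 40.7%. By composition, 4 of 190 air members with less than 27% G and C (2.11%) and 59 of 113 with 42% or more (52.2%) were found in ethylene. For genic air peaks these shares were 21.7% of 46 peaks below 27% G and C and 73.2% at 42% or more. The classes also differed in height, so these shares are not those of composition alone. Median tags below 27% and at 42% or more were 160 and 217 for intergenic and 174 and 273 for genic air peaks. The local background of the peak caller at the summit, in control tags, was a median of 27.4 for intergenic and 32.0 for genic air peaks. In ethylene it was 11.0 for intergenic and 12.0 for genic peaks. Its lowest value, 23.07 in air and 7.317 in ethylene, was shared by several peaks. In air these were 6.09% of intergenic and 1.23% of genic peaks, and in ethylene 6.71% of intergenic and 2.06% of genic ones. This background thus moved with the class, and its part in the calling of these peaks was not tested.

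The letters TATAAA occurred in 16.8% of intergenic (11.6 to 23.6%) and 13.4% of genic windows in ethylene, beside 13.5% of all ethylene windows. In air they occurred in 43.9% of intergenic (40.6 to 47.3%) and 14.7% of genic windows, beside 16.0% of all air windows. Within windows of 27 to 32% G and C the shares were 52.6% for intergenic and 43.4% for genic air peaks, and below 27% they were 71.1% for intergenic and 71.7% for genic ones. The telo box was found in 14.8% of intergenic (9.96 to 21.3%) and 11.8% of all ethylene windows, and in 5.85% of intergenic (4.47 to 7.64%) and 12.0% of all air windows. Among ethylene members without an annotated feature it was in 16 of 70 (22.9%, 14.6 to 33.9%). Over a pseudogene in ethylene it was in 6 of 79 (7.6%, 3.53 to 15.6%), and among air members without a feature in 39 of 719 (5.42%, 3.99 to 7.33%). The GA repeat was in 10.7% of intergenic and 12.5% of all ethylene windows, and in 3.63% of intergenic and 12.5% of all air windows. The G-box was in 2.01% of intergenic and 3.02% of all ethylene windows, and in 1.29% of intergenic and 2.86% of all air windows. Site II was in 0.671% of intergenic and 1.74% of all ethylene windows, and in 0.820% of intergenic and 1.75% of all air windows.

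Most members were nearest a protein coding gene, at 109 of 149 in ethylene (73.2%) and 669 of 854 in air (78.3%), while coding genes are 83.0% of all genes. A microRNA gene, whose annotated body is often no more than the hairpin and not the whole primary transcript, was the nearest gene of 7 ethylene members (4.70%, 2.29 to 9.38%) and 13 air members (1.52%, 0.892 to 2.59%), and such genes are 0.986% of all genes. These were looked at after their values were seen. The peak nearest MIR319c, whose microRNA acts on growth regulators of the TCP family, lay 664 bp before it with 204 tags in ethylene, and 590 bp before it with 211 tags in air. The peak before MIR169a, whose microRNA acts on NF-YA factors, had 239 tags in ethylene and 259 in air, that before MIR867 had 318 in ethylene and 320 in air, and that before MIR447a had 310 in ethylene and 304 in air. These 4 peaks lay at most 664 bp from the hairpin in both lists. Of the other 3 ethylene members, those nearest MIR5595a and MIR8174 lay beyond the 3′ end and that nearest MIR401 lay 16448 bp before the gene. Of all these members, 5 of 7 in ethylene and 7 of 13 in air were on the side of the gene's start.

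Among members next to named coding genes, the peak with the largest fold enrichment in ethylene was that beside GSTU22, a glutathione transferase gene on chromosome 1. It had 254 tags in ethylene and 251 in air, a fold enrichment of 3.17 in ethylene and 2.54 in air, and lay 690 bp beyond the gene's 3′ end in ethylene. Between AT3G42160 and DAYSLEEPER, a gene derived from a transposase, a peak had 300 tags in ethylene and 291 in air. The largest fold enrichment of the air members, 3.68, was at a peak 293 bp beyond the 3′ end of the receptor-like kinase gene CCR3. It was 2.11 in ethylene, where the peak had 349 tags against 363 in air. The ethylene peak there was 284 bp broad and the air peak 463 bp.

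Peaks over 5 kb from any gene numbered 9 in ethylene and 16 in air. The farthest, 35734 bp from AT4G05355 in ethylene and 35583 bp in air, lay over the pseudogene AT4G08110 in a gap of 101728 bp on chromosome 4, with 277 tags in ethylene and 293 in air. The same gap held a second peak 16448 bp from MIR401 in ethylene and 16425 bp in air, with 296 tags in ethylene and 307 in air. On chromosome 1, a peak between the acetyl-CoA carboxylase gene ACC2 and AT1G36230 was 7235 bp from a gene in ethylene and 7187 bp in air. It was 255 bp broad with 264 tags and a fold enrichment of 1.61 in ethylene, against 737 bp, 282 tags and 3.57 in air.

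Some gaps held rows of air peaks. The broadest air member, 1742 bp with 203 tags, lay between CYP705A5 and CYP708A2, genes of the pathway of thalianol, a triterpene of the root. Its gap of 7353 bp held 2 further air peaks of 1367 and 1302 bp with 221 and 190 tags. In ethylene it held peaks of 486 and 284 bp with 236 and 175 tags, over the first and the last of the 3. The gap between AT1G69760 and CMT3, the DNA methyltransferase gene for CHG sites, held 7 air peaks of 142 to 190 tags, the most of any gap, and no ethylene peak. The gap between the xylosidase gene BXL1 and AT5G49390 held 6 air peaks, 1 of 1474 bp with 188 tags, and the gap between the aquaporin gene TIP2 and AT3G00450 held 6, the broadest of 1313 bp with 234 tags. Neither gap held an intergenic ethylene peak. Between XTH24 and XTH18, genes of cell wall enzymes, there were 2 peaks of 234 and 243 tags in ethylene and 5 in air, and the 2 air peaks that overlapped those of ethylene had 245 and 242 tags.

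Of the air members with no ethylene peak, the largest fold enrichment was 3.13, at 247 tags, 1030 bp from AT4G04077 on chromosome 4. The peak with the most tags among the 5 such members with the largest fold enrichment lay 417 bp before AT2G11035, with 315 tags and 2.89. As a whole, the 715 air members without an ethylene peak had a median of 167 tags, against 267 for the 139 with one.

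In air, 5 genes of the ethylene and light pathways were the nearest gene of a member. They are among the 84 entries of 6 gene lists, and 2.18% of all genes were nearest to an air member. They were 1 of 14 genes of ethylene biosynthesis, 3 of 15 genes of the ethylene response and 1 of 12 genes of dark growth and light signalling. For ethylene receptors and signalling it was 0 of 17, for constitutive genes 0 of 15 and for flower and seed genes 0 of 11. No entry was nearest to an ethylene member, where the background was 0.433% of all genes, too low for a list of this size to be read against. The gene of biosynthesis was ACS8, which encodes an ACC synthase, with a peak of 207 bp and 162 tags 1982 bp before its start. RAV1 had 2 peaks, of 171 and 158 tags, 3493 and 510 bp before its start, and TEM1, of the same family of transcription factors, had 2 of 146 and 152 tags. The defensin gene PDF1.2 had 2 beyond its 3′ end, of 130 and 138 tags, and the blue light receptor gene CRY1 had 1 of 174 tags, 796 bp before its start. All 8 had fewer than 175 tags and no ethylene peak over them, a range of height in which few air peaks of any class were found in ethylene.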

How the data were processed

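H3K9Ac was measured by ChIP-seq. The authors mapped reads to TAIR10 (Bowtie 1.1.2 and SAMtools in the submitters' processing notes), merged both H3K9Ac libraries within each treatment and ran MACS2 2.1.0.20150603 at p = 0.01, extending tags to 200 bp without a fragment model. The deposited lists give breadth, pileup signal at the summit, fold enrichment (a ratio) and −log10 p-value and q-value. Their header states that q-values are not reported, yet the authors' column of q-values is filled, and it was taken as a score for 1 alternative. MACS2 used 43572576 H3K9Ac and 4354374 control tags in ethylene, and 45582654 and 13726993 in air.

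Gene models were those of RefSeq TAIR10.1 (33056 genes, 4843 pseudogenes), and an overlap was at least 1 bp. Tags are the pileup divided by the scaling factor, and each came out within 0.05 of a whole number. The local background, in control tags, was recovered from pileup and fold enrichment. Shares have 95% Wilson and medians 95% binomial intervals. Python 3.11.15, pandas 2.3.3, scipy 1.17.1 and Biopython 1.88 were used, and the steps were tested on simulated intervals. Named peaks are the 5 of each list with the largest fold enrichment, breadth and distance from a gene, at most 5 without a counterpart, and those nearest to genes of 6 lists. Members, lists and this rule were chosen with earlier results of these data known, and other peaks were named after their values were seen. Base composition and the lists of equal length set by class were also examined after the values were seen. Alternatives are given in the closing section. Other marks and genotypes were not analysed here.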

Additional observations from a re-analysis of the deposited data

How the results depend on the processing

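Of the values recomputed, none is a signed difference, and the paired differences were not recomputed. Of these, 32 of 74 values under 7 alternatives moved by less than their interval or, for counts, by less than 1.5 times. With pseudogenes counted as genes there were 70 intergenic ethylene peaks (0.544% of the list, median breadth 284.5 bp), and in air they were 3.93% of the list, with a breadth of 310 bp, a fold enrichment of 1.81 and 8.62% found in ethylene. With protein coding genes alone there were 379 ethylene members (2.95%), and in air 6.81%, 368 bp, 1.93 and 28.7%. With the summit alone outside genes they were 1.70% in ethylene, and in air 5.55%, 343 bp, 1.87 and 21.2%. With a fold enrichment of at least 2, the median in ethylene was 2.38 and 85.7% were found in air, and 271 air members were left (2.02%, 461 bp, median 2.29, 50.2% nearest a start, 32.1% found in ethylene). With a q-value column of at least 2, there were 88 ethylene members (415 bp, 2.44, 100% found in air), and in air 4.25%, 341 bp, 1.89 and 11.4%. With lists of equal length 79.2% of ethylene members were found in air, and the 197 air members (1.53%) had 502 bp, 2.43, 51.3% nearest a start and 55.3% found in ethylene. With an overlap of at least 50% of the peak, 13.1% of air members were found in ethylene. In all of these the air share exceeded the ethylene share, and fewer air than ethylene members were found in the other list. With lists of equal length the intervals of the 2 shares overlapped, at 1.33 to 1.76% in air and 0.987 to 1.36% in ethylene.

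The causes were not tested. Limits are the single pooled list per treatment, controls of unequal depth and the annotation. No paired analysis was possible because the authors pooled the libraries before calling peaks.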
